A study of Mus musculus with 8 samples.

Results

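The integrated stress response was followed through 10 genes in CD8+ T cells treated with GC7, a small molecule that blocks deoxyhypusine synthase and thereby the hypusination of eIF5a. The genes were taken by symbol. They are the transcription factors *Atf4*, *Ddit3*, *Atf3*, *Atf5* and *Cebpb*, and *Nupr1*, which encodes a small chromatin protein. The rest are the feedback and effector genes *Trib3*, *Ppp1r15a*, *Chac1* and *Sesn2*. All 10 were found among the 55536 genes of the count tables, and all 10 were among the 11189 genes that passed the filter on low counts. Of these, *Chac1* passed the filter only through its GC7 libraries.

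In the integrated stress response, kinases that sense amino acid shortage, misfolded proteins in the endoplasmic reticulum, haem shortage or double-stranded RNA phosphorylate the initiation factor eIF2. Bulk initiation then slows while mRNAs with short upstream reading frames, that of ATF4 first among them, are translated better, so ATF4 is controlled largely at the level of its protein. ATF4 and its partners raise the transcription of genes for amino acid supply, and of a feedback arm in which the *Ppp1r15a* product directs the phosphatase PP1 to eIF2. mRNA libraries read the transcript side of this pathway and neither the phosphorylation of eIF2 nor the ATF4 protein.

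The cells were lymphocytes of the C57BL/6 strain from OT-I mice, whose CD8 T cells carry one transgenic receptor for the ovalbumin peptide SIINFEKL. By the study's methods these mice also lack *Rag1*, in both groups alike, and so have no T or B cells of other specificities. They carry CD45.1 or CD45.2 alleles, and which of these each library had is not given. Every library came from cells given 100 nM SIINFEKL for 2 days and then 20 ng/ml recombinant human IL-2 for 2 days. The 4 GC7 libraries had 10 µM GC7 during the IL-2 culture, and the 4 mock libraries had the acetic acid vehicle. No untreated or unstimulated cells were among the 8 libraries, so both groups are peptide-activated cells. The study itself describes GC7 as having effects beyond eIF5a, so the comparison is of the drug with its vehicle.

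Libraries held between 17528776 and 25284730 counts. mRNA encoded by the mitochondrial genome took 1.67% to 1.78% of the counts in mock libraries and 0.118% to 0.146% in GC7 libraries. The 7 CD8 T cell markers were detected in every library, with a summed level of 2710 to 3320 CPM (counts per library scaled by the summed counts of the genes tested and a TMM factor) in the mock group and 2690 to 2890 CPM in the GC7 group. Within that list *Cd8a* rose (log2 fold change 0.48, FDR 3.4e-05), *Cd3e*, *Cd3g*, *Cd247* and *Trac* fell by 0.23 to 0.38 on the log2 scale, and *Cd8b1* and *Cd3d* were not called. Summed markers of CD4 T cells, B cells, myeloid cells, dendritic cells, NK cells and erythroid cells were at most 11.1 CPM in any library, and *Ms4a1*, *Pax5*, *S100a8*, *S100a9* and *Siglech* had 0 counts in all. Among these low markers *Zbtb46* rose from 0.457 ± 0.158 to 4.11 ± 0.682 CPM and *Xcr1* fell from 5.14 ± 0.739 to 0.631 ± 0.187 CPM. *Cd79b* fell from 7.49 ± 1.45 to 4.42 ± 0.485 CPM. *Zbtb46*, on 5 to 14 counts a library in mock, passed the filter on low counts only through its GC7 libraries. *Xcr1*, on 7 to 18 counts in GC7, passed only through its mock libraries. The part of any of these markers in the results below was not tested. The summed stroma markers ranged over 52.3 to 57.0 CPM in mock and 30.7 to 32.6 CPM in GC7, nearly all of it *Pecam1*. The other 4 stroma markers were each under 1 CPM in every library. Mock 2 gave the highest of the 4 mock values for 8 of the 10 genes and GC7 3 the lowest of the 4 GC7 values for 8, so values without these libraries are given where they matter.

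Between GC7 and mock, the 10 genes split. *Sesn2*, *Nupr1*, *Atf3*, *Chac1* and *Atf5* rose, *Ppp1r15a* fell, and *Atf4*, *Ddit3*, *Trib3* and *Cebpb* did not pass the test (edgeR quasi-likelihood test, false discovery rate, FDR, under 0.01 over all genes tested). That is 5 of 10 higher, against 23.0% of all genes tested, and 1 of 10 lower, against 23.5%. Change was widespread in these libraries, with 46.6% of genes called in either direction, so the share of called genes among the 10 was not far from that of the background. By size, 4 of the 10 rose by more than 2-fold, where 3.17% of all genes did, and none fell by as much, where 5.31% did. The median log2 fold change of the 10 genes was 0.45, and that of all genes tested was 0.02. These figures include *Chac1*, which had to be higher in GC7 to be tested. Over the other 9 genes, 4 rose, 3 of them by more than 2-fold, 1 fell, and the median was 0.09, close to that of all genes. The median of the 10 lies between *Ddit3* (0.09) and *Atf5* (0.80), so leaving out any other single gene that rose also gives 0.09. All 4 GC7 libraries lay above all 4 mock libraries for the 5 genes that rose, an arrangement seen for 28.1% of all genes, and below them for *Ppp1r15a* (27.5% of all genes). The same 6 calls were made in each of 17 alternative settings, including the one in which Mock 2 and GC7 3 were both left out. Of the genes past 2-fold, *Atf3* and *Chac1* sat at that limit. Without GC7 1, and likewise without GC7 4, 2 of the 10 rose by more than 2-fold in place of 4.

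**Figure D1:**
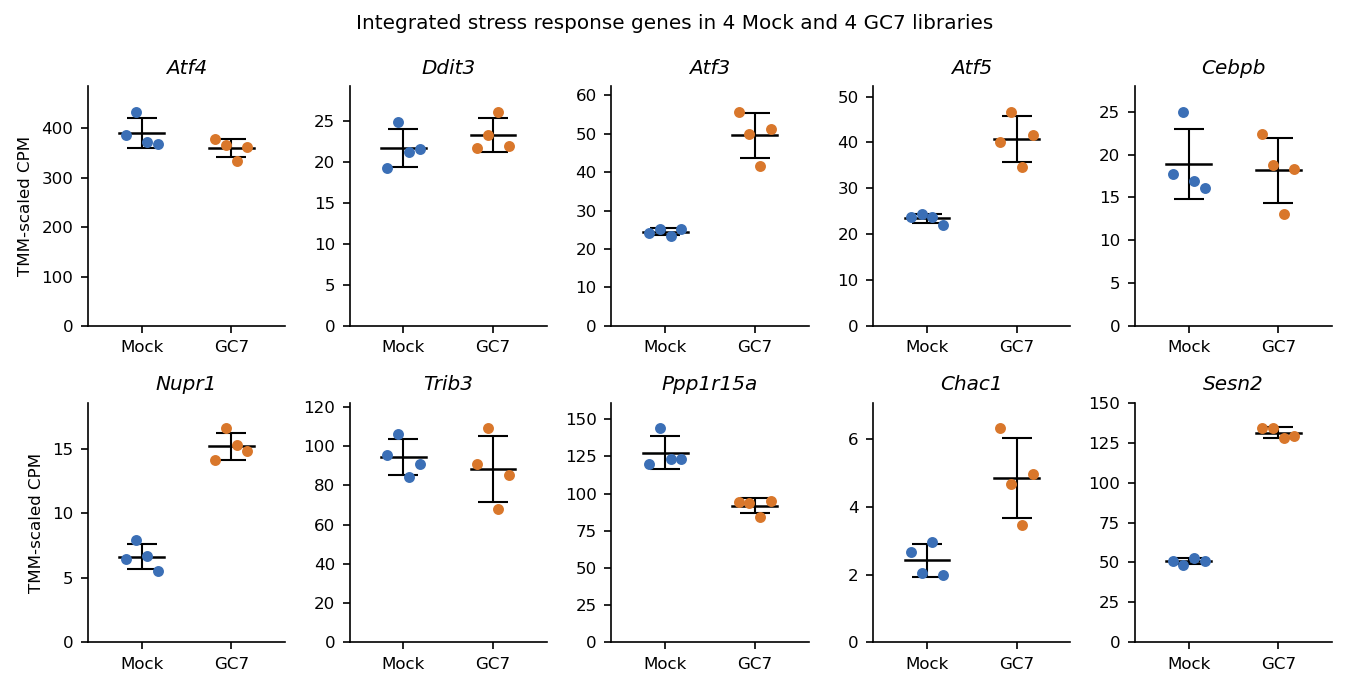
TMM-scaled CPM (vertical axes, from 0) of the 10 genes in each of the 4 Mock libraries (blue points) and the 4 GC7 libraries (orange points), with the mean (long bar) and SD (whiskers). The groups are separate for Atf3, Atf5, Nupr1, Chac1 and Sesn2 (GC7 above) and for Ppp1r15a (GC7 below), and they overlap for Atf4, Ddit3, Cebpb and Trib3.

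Before the single genes, the promoter windows in which a motif of the pathway was found are given. Promoters were taken from RefSeq (GRCm38.p6) as 250 bases before and 50 bases after each annotated start, and all 10 symbols matched, *Atf5* with 2 promoters. They were searched on both strands for TTNCATCA, the composite site bound by C/EBP and ATF factors, whose reverse complement is TGATGNAA, and for the palindrome TGACGTCA, the cAMP response element bound by ATF and CREB factors. Capitals mark the motif, and each line runs 5′ to 3′ along the gene.

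*Atf3*, chr1:191183410-191183469, minus strand: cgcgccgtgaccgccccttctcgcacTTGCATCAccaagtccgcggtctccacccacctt

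*Nupr1*, chr7:126625547-126625606, minus strand: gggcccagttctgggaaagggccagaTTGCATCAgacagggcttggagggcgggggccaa

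*Chac1*, chr2:119351023-119351082, plus strand: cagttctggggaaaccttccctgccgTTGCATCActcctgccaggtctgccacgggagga

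*Trib3*, chr2:152344028-152344057, minus strand: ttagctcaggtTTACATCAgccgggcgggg

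*Ppp1r15a*, chr7:45526269-45526328, minus strand: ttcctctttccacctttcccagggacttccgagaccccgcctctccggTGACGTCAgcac

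The composite site was found in 4 of the 11 promoters (36.4%), against 3.97% of all 32851 promoters in the table and 2.25% of the 10627 promoters of genes tested. The 10 genes were chosen as genes of this response, several of them known to be induced by ATF4. A raised share of the site is therefore built into the choice of genes and is no result of these libraries. In *Atf3* and *Nupr1* its first base lay 110 bases before the annotated start and in *Chac1* 193 bases before it, all 3 with the letters TTGCATCA. For *Atf3* and *Nupr1* the RefSeq start used lies inside the span of the gene, downstream of its outermost annotated start. In *Trib3* the site read TTACATCA and lay 14 bases after the RefSeq start, but before the start of the gene model used for the counts, which lies further downstream. The cAMP response element was found in 1 of the 11, that of *Ppp1r15a*, 12 bases before the start, against 1.79% of all promoters and 3.23% of promoters of genes tested. No promoter of the 10 held both motifs, and no match to either was found in the windows of *Atf4*, *Ddit3*, *Atf5*, *Cebpb* and *Sesn2*. Thus the genes with a composite site included 3 that rose, 2 of them without *Chac1*, and 1 that was not called, and 2 genes that rose, *Sesn2* and *Atf5*, had no match in these windows. The part of either motif in any change was not tested.

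*Atf4* encodes the central transcription factor of the response. It held 386, 434, 372 and 369 CPM in the mock libraries and 378, 367, 334 and 363 CPM in the GC7 libraries. The highest value was Mock 2 and the lowest GC7 3, and the other 6 libraries were intermixed. The mean was 390 ± 29.8 CPM in mock and 361 ± 18.6 CPM in GC7 (SD, n = 4 each), a log2 fold change of -0.11 with a 95% interval of -0.27 to 0.04 (FDR 0.18). This interval does not reach a 2-fold change in either direction. Without both Mock 2 and GC7 3 the log2 fold change was -0.02. At 5987 to 10199 counts a library, *Atf4* was the most deeply counted of the 10 genes.

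*Ddit3* encodes CHOP, which ATF4 induces under lasting stress. Its levels were 19.3, 24.8, 21.2 and 21.5 CPM in mock and 21.7, 23.3, 26.1 and 21.9 CPM in GC7. The groups overlapped, with means of 21.7 ± 2.29 and 23.2 ± 2.02 CPM (log2 fold change 0.09, 95% interval -0.11 to 0.30, FDR 0.402). A second annotated gene of the same symbol shares 105 exon bases with it on the same strand and had 0 counts in all libraries. On the opposite strand *Mars*, a methionyl-tRNA synthetase gene at 167 ± 8.48 CPM in mock and 167 ± 16.8 CPM in GC7, shares 68 of the 1713 exon bases of *Ddit3*, and without a stated strand setting reads of these bases cannot be assigned.

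*Atf3* encodes a stress-induced factor of the same leucine zipper class, and it rose. Mock libraries held 24.1, 25.3, 23.5 and 25.2 CPM, and GC7 libraries 55.7, 50.0, 41.6 and 51.1 CPM. Even GC7 3, the lowest of its group, lay well above the highest mock library. The mean went from 24.5 ± 0.878 to 49.6 ± 5.88 CPM, giving 1.02 on the log2 scale (SE 0.0872, FDR 1.0e-06), and leaving out single libraries moved it between 0.95 and 1.09. *Atf3* is also a known target of p53, and p53 targets moved strongly in these libraries, as given with the lists.

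*Atf5* is, like *Atf4*, translated through upstream reading frames, and it is linked to mitochondrial stress. It rose from 23.7, 24.3, 23.7 and 22.1 CPM in mock to 40.1, 46.7, 34.7 and 41.6 CPM in GC7. Mock libraries lay close together and GC7 libraries were spread more widely, with GC7 3 again the lowest. The means were 23.5 ± 0.927 and 40.8 ± 4.95 CPM (log2 fold change 0.80, SE 0.0884, FDR 9.4e-06), short of a 2-fold change. *Atf5* shares 82 of its 1993 exon bases with *Nup62* on the opposite strand. *Nup62* was not called (log2 fold change 0.12, FDR 0.0649).

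*Nupr1* encodes a small chromatin protein induced by many stresses. It was at 6.46, 7.91, 6.71 and 5.51 CPM in mock and at 14.1, 16.6, 15.3 and 14.8 CPM in GC7. The 4 GC7 libraries were close to each other and far from mock. From a mean of 6.65 ± 0.986 CPM it rose to 15.2 ± 1.05 CPM, or 1.19 on the log2 scale (SE 0.115, FDR 3.0e-06), on 110 to 186 counts a library in mock and 275 to 365 in GC7.

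*Cebpb* encodes a C/EBP factor that pairs with ATF4 on composite sites. It held 17.7, 25.0, 16.9 and 16.1 CPM in mock and 22.4, 18.8, 13.1 and 18.3 CPM in GC7. Single libraries decided its direction, since Mock 2 was the highest of all 8 and GC7 3 the lowest. The log2 fold change of -0.06 (95% interval -0.42 to 0.30, FDR 0.782) became 0.11 without Mock 2, 0.06 without GC7 3 and 0.23 without both (FDR 0.0287), none past the threshold. *Cebpb* shares 312 of its 1504 exon bases with *Tmem189* on the opposite strand, and *Tmem189* fell from 62.0 ± 4.37 to 39.5 ± 3.94 CPM (log2 fold change -0.65, FDR 3.0e-05). The part of the shared bases in the *Cebpb* value was not tested.

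*Sesn2* encodes a sestrin that restrains mTORC1 when leucine is short, and it moved most of the 10. Its levels were 50.9, 48.4, 53 and 50.8 CPM in mock and 134, 134, 128 and 129 CPM in GC7. Both groups were narrow, and the gap between them was many times their spread. Its mean went from 50.8 ± 1.89 to 131 ± 3.29 CPM, 2.58 times the mock level, with a log2 fold change of 1.37 (SE 0.0565, 95% interval 1.25 to 1.49, FDR 1.9e-09). Of all genes tested, 98.5% had a lower log2 fold change. *Sesn2* is a target of p53 as well as of ATF4.

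*Chac1* encodes a glutathione-degrading enzyme and is commonly read as a marker of ATF4 activity. It was the least abundant of the 10, at 2.67, 2.04, 2.98 and 2.00 CPM in mock and 6.33, 4.69, 3.46 and 4.97 CPM in GC7. The lowest GC7 library, GC7 3, stood only a little above the highest mock library, Mock 3. The mean rose from 2.42 ± 0.481 to 4.86 ± 1.18 CPM (log2 fold change 1.01, SE 0.199, FDR 9.0e-04). It rests on 40 to 64 counts a library in mock and 62 to 130 in GC7, and its 95% interval of 0.58 to 1.44 was the widest of the genes that changed. All 4 mock values were under the filter of 3 CPM, so *Chac1* entered the test only because it was higher in GC7, and its call is given as a description.

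*Trib3* encodes a pseudokinase that ATF4 and CHOP induce and that in turn holds ATF4 back. Mock libraries held 95.4, 106, 84.4 and 91.0 CPM, and GC7 libraries 90.8, 109, 67.9 and 85.1 CPM. The values overlapped fully, with GC7 2 the highest and GC7 3 the lowest of all 8. The log2 fold change was -0.09 (95% interval -0.36 to 0.17, FDR 0.517) and changed sign to 0.01 without GC7 3 and to 0.08 without both Mock 2 and GC7 3. *Trib3* was thus not called, with means of 94.3 ± 9.16 CPM in mock and 88.2 ± 16.9 CPM in GC7, on 1217 to 2498 counts a library.

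*Ppp1r15a* encodes GADD34, the inducible subunit that brings PP1 to phosphorylated eIF2, and it was the one gene of the 10 that fell. It went from 120, 144, 123 and 123 CPM in mock to 94.3, 93.6, 84.2 and 95.4 CPM in GC7. Mock 2 stood above the other mock libraries and GC7 3 below the other GC7 libraries, and the groups stayed apart without them. The mean fell from 128 ± 11.1 to 91.9 ± 5.19 CPM, which is 28.0% lower, with a log2 fold change of -0.47 (SE 0.0725, FDR 1.3e-04). Without both Mock 2 and GC7 3 it was -0.37 (FDR 1.0e-06).

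**Figure D2:**
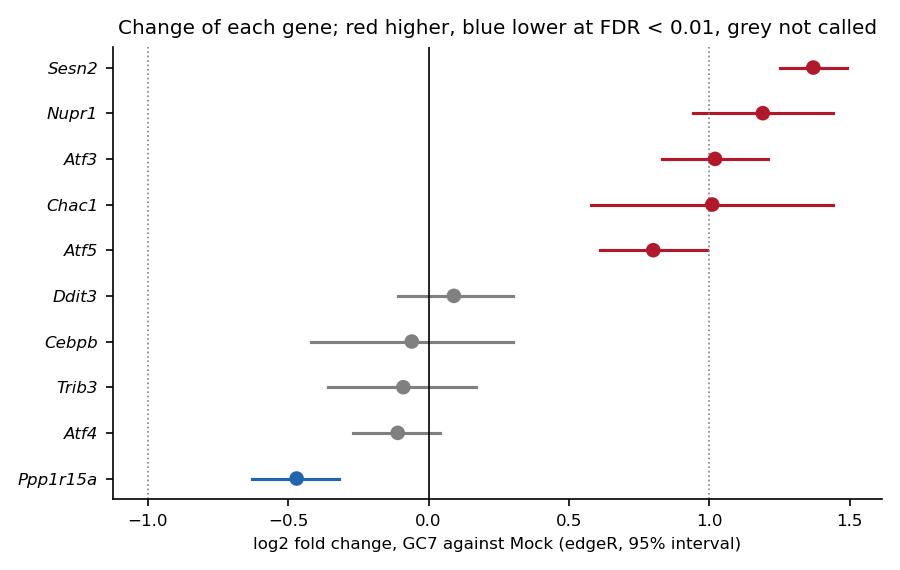
Log2 fold change of GC7 against Mock (horizontal axis) for each of the 10 genes, with the 95% interval of the edgeR fit as a line and dotted lines at a 2-fold change. Red points were higher, the blue point lower and grey points not called at FDR under 0.01. Sesn2 lies furthest right at 1.37 and Ppp1r15a furthest left at -0.47, and the intervals of the 4 grey genes all cross 0.

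Levels can be set against each other only per length of exon, as CPM per kb. On that scale *Atf4* led both groups, at 165 ± 12.6 CPM per kb in mock and 153 ± 7.90 in GC7. In mock, *Trib3* (44.4 ± 4.31) and *Ppp1r15a* (43.4 ± 3.79) came next and overlapped each other. They were followed by *Sesn2* (14.6), *Ddit3* (12.7), *Cebpb* (12.6), *Atf5* (11.8) and *Atf3* (11.4 CPM per kb), each of which overlapped its neighbour in this order. *Nupr1* at 2.64 and *Chac1* at 1.48 CPM per kb stood apart below them and from each other.

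In GC7 the order of the middle genes differed. *Sesn2* at 37.8 ± 0.948 CPM per kb overlapped *Trib3* (41.5 ± 7.96) and lay above *Ppp1r15a* (31.3 ± 1.77) in every library. *Atf3* (23.0) and *Atf5* (20.5 CPM per kb) overlapped each other and stood above *Ddit3* (13.6) and *Cebpb* (12.1), which overlapped. *Nupr1* (6.06) and *Chac1* (2.97 CPM per kb) remained the lowest.

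**Figure D3:**
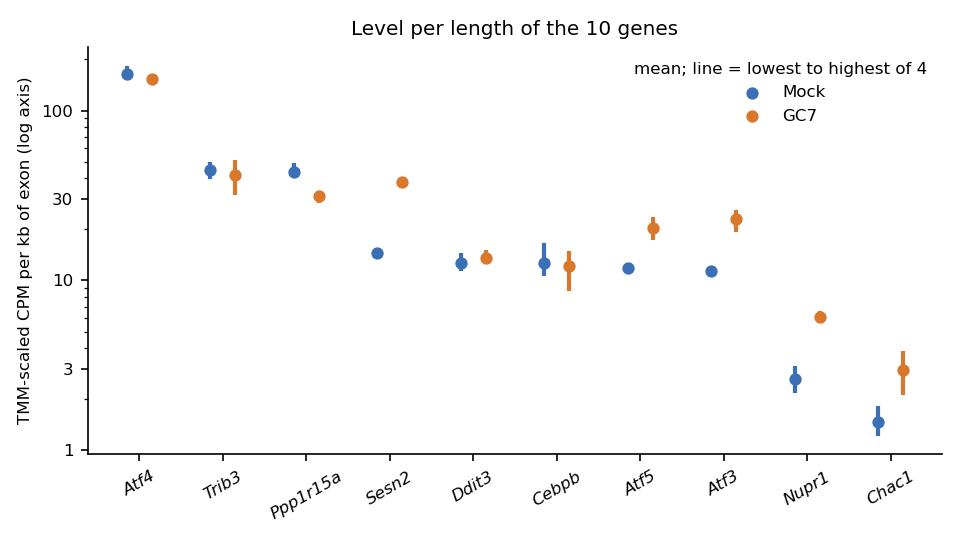
Level per length, as TMM-scaled CPM per kb of exon on a log axis, for the 10 genes in the order of their Mock means. Points are means of 4 libraries and lines run from the lowest to the highest library, blue for Mock and orange for GC7. Sesn2 went from 14.6 to 37.8 CPM per kb and passed Ppp1r15a, while Atf4 stayed the highest gene in both groups.

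Set against *Atf4* within the same library, which needs no scaling between libraries, the same genes were apart. For each 100 *Atf4* counts there were 11.2 to 14.3 *Sesn2* counts in mock and 35.4 to 38.2 in GC7. For *Atf3* the ranges were 5.84 to 6.81 in mock and 12.4 to 14.8 in GC7, and for *Atf5* they were 5.61 to 6.37 and 10.4 to 12.7. *Nupr1* went from 1.49 to 1.82 in mock to 3.74 to 4.59 in GC7. *Chac1*, which passed the filter only through its GC7 libraries, had 0.471 to 0.802 in mock and 1.04 to 1.68 in GC7. *Ppp1r15a* had 31.1 to 33.4 counts per 100 in the mock libraries, and fewer in GC7, at 25.0 to 26.3. The ranges of *Ddit3*, *Cebpb* and *Trib3* overlapped between the groups. A ratio of this kind shows only that the genes changed unequally.

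The genes whose pattern over the 8 libraries was most like that of *Atf4* were *Mgat1*, *Cars* and *Kars*. Their root mean square differences from *Atf4*, in centred log2 CPM, were 0.0253, 0.0258 and 0.0262, and the median over 10191 protein-coding genes was 0.222. None of them passed the test (log2 fold changes -0.13, -0.11 and -0.13). Most like *Sesn2* were *Zbtb18*, *Pros1* and *Frrs1*, with differences of 0.0532, 0.0637 and 0.0784 against a median of 0.693, and log2 fold changes of 1.35, 1.38 and 1.28.

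Upstream reading frames are the feature by which several mRNAs of this response escape the block on initiation. In the annotated transcript with the longest coding sequence, the 5′ leader of *Ppp1r15a* held 7 ATG triplets, that of *Atf4* 3, those of *Ddit3* and *Atf5* 2 each, and those of *Atf3*, *Nupr1* and *Sesn2* 1 each. The leaders of *Cebpb*, *Trib3* and *Chac1* held 0. At least 1 ATG was found in 70.0% of the 10 leaders and in 49.2% of the leaders of 10190 protein-coding genes tested. As with the promoter motif, the 10 were chosen as genes of this response. A raised share is therefore built into the choice of genes and is no result of these libraries. Of the genes that rose, *Atf5* had 2, *Atf3*, *Nupr1* and *Sesn2* 1 each, and only *Chac1* had 0. *Chac1* was tested only because it was higher in GC7. Genes not called were found both with leader ATGs (*Atf4* with 3, *Ddit3* with 2) and without (*Trib3* and *Cebpb* with 0). *Ppp1r15a*, which fell, had the most, at 7. The part of leader ATGs in any change was not tested.

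The counts over related lists that follow are read against the 23.0% of all genes that were higher and the 23.5% that were lower, and lists with shares near these do not stand out. Upstream of *Atf4*, 1 of 10 tested genes for eIF2 kinases and their regulators changed. It was *Impact*, which inhibits the activation of the kinase GCN2, and it rose from 22.8 ± 1.33 to 33.3 ± 0.621 CPM (log2 fold change 0.55, FDR 2.3e-05). The kinase genes had log2 fold changes of 0.12 for *Eif2ak1* (HRI), -0.02 for *Eif2ak2* (PKR), 0.19 for *Eif2ak3* (PERK, FDR 0.0136) and -0.10 for *Eif2ak4* (GCN2). *Gcn1l1*, the GCN2 cofactor, had 0.21, the PKR activator *Prkra* 0.23, the kinase inhibitor *Dnajc3* 0.15, and the mitochondrial relay genes *Oma1* and *Dele1* 0.04 and -0.02. Without both Mock 2 and GC7 3, 4 of the 10 were higher and 1 was lower, the lower one being *Eif2ak4* at -0.19. None of these mRNA levels gives the activity of a kinase.

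Among 14 genes for eIF2, its exchange factor eIF2B, the phosphatases and factors of similar name, 2 rose and 3 fell. *Eif2d* (log2 fold change 0.44), which does not encode a subunit of eIF2, and *Eif2s3x* (0.38), which does, were higher. *Ppp1ca* (-0.53) and *Ppp1cc* (-0.28), catalytic subunits of the PP1 that *Ppp1r15a* recruits, were lower, as was the eIF2B subunit *Eif2b4* (-0.36). *Ppp1r15b*, the constitutive relative of *Ppp1r15a*, held 182 ± 15.6 CPM in mock and 177 ± 14.1 CPM in GC7 and was not called (FDR 0.689).

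Of 11 relatives of the 10 genes, 7 were tested, and *Sesn3* rose while *Trib1* and *Trib2* fell. *Sesn3* went from 93.1 ± 15.9 to 133 ± 7.62 CPM (log2 fold change 0.51), and *Sesn1* was at 35.4 ± 1.31 and 36.2 ± 4.68 CPM (FDR 0.77), beside the larger rise of *Sesn2*. *Trib1* went from 17.1 ± 0.672 to 9.15 ± 0.794 CPM and *Trib2* from 64.7 ± 1.25 to 39.1 ± 1.61 CPM (log2 fold changes -0.91 and -0.73), whereas *Trib3* was not called. *Chac2*, with a log2 fold change of -0.28 (FDR 0.059), and *Cebpg*, with 0.07 (FDR 0.432), were not called.

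Other leucine zipper factors, the partners and rivals of ATF4, moved both ways, with 7 of 24 tested higher and 9 lower (median log2 fold change 0.06). *Nfe2l2* (0.72), which encodes the antioxidant regulator NRF2, and *Bach2* (0.60) rose most. *Fos* (-1.24) and *Nfil3* (-1.03) fell most.

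Genes that ATF4 is known to induce did not move as 1 block. For amino acid synthesis 6 of 12 rose and 1 fell, with a median log2 fold change of 0.33. *Cth*, the cystathionine gamma-lyase of the transsulfuration pathway, rose from 4.45 ± 0.600 to 48.9 ± 3.42 CPM (3.46) and *Aldh1l2* from 5.68 ± 2.09 to 16.8 ± 2.55 CPM (1.58), while *Mthfd1l*, of mitochondrial one-carbon metabolism, fell (-1.01). For amino acid transporters 5 of 9 rose and none fell (median 0.38), led by *Slc7a3* (1.54), a carrier of cationic amino acids, and *Slc6a9* (1.49), a glycine carrier. For tRNA charging 4 of 13 rose and 1 fell (median 0.03), a share of higher genes near that of all genes. In that list *Xpot*, the tRNA exporter, had 0.47 and *Wars* 0.41, and the call of *Sars* (-0.24, FDR 0.00908) was lost in 12 of the 17 alternatives.

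The remaining known targets, 11 tested, gave 5 higher and 6 lower (median log2 fold change -0.31). *Tnfrsf10b* (1.66), a death receptor gene, and *Pmaip1* (0.98), which encodes NOXA, rose most. *Ero1l*, an oxidase of the endoplasmic reticulum linked to CHOP, fell from 1090 ± 103 to 280 ± 57.5 CPM (-1.96), and *Ddit4*, which encodes the mTORC1 inhibitor REDD1, fell from 392 ± 15.3 to 254 ± 12.5 CPM (-0.62).

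The IRE1 and ATF6 arms of the unfolded protein response, which run beside the PERK arm, had 3 of 16 genes higher and 4 lower (median log2 fold change -0.07), near the shares of all genes in both directions. *Ern1* (0.64), which encodes IRE1, and *Sel1l* (0.62) rose most, and *Sdf2l1* (-0.83) and *Xbp1* (-0.50) fell most. Of the 10 chaperones and proteases of mitochondrial stress, 3 rose and 2 fell (median 0.08). *Hspe1* (0.92) and *Hspd1* (0.40), the 2 parts of the mitochondrial chaperonin, were higher, and the proteases *Afg3l2* (-1.15) and *Lonp1* (-0.41) were lower.

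Of the p53 targets, 14 of 17 tested rose and 2 fell, with a median log2 fold change of 1.23. This list, like the others, was written with earlier results of these data known. *Zmat3* (2.54) and *Plk2* (2.33) rose most, and *Ddit4* (-0.62) and *Btg2* (-0.47) were the 2 that fell. The list shares *Tnfrsf10b*, *Pmaip1*, *Ddit4* and *Sesn1* with the lists above. All 13 mitochondrially encoded mRNAs fell, with a median of -2.94. The part of either in the changes of the 10 genes was not tested. In bulk libraries of this kind a change in every cell cannot be told apart from a change in the share of cells that express a gene.

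**Figure D4:**
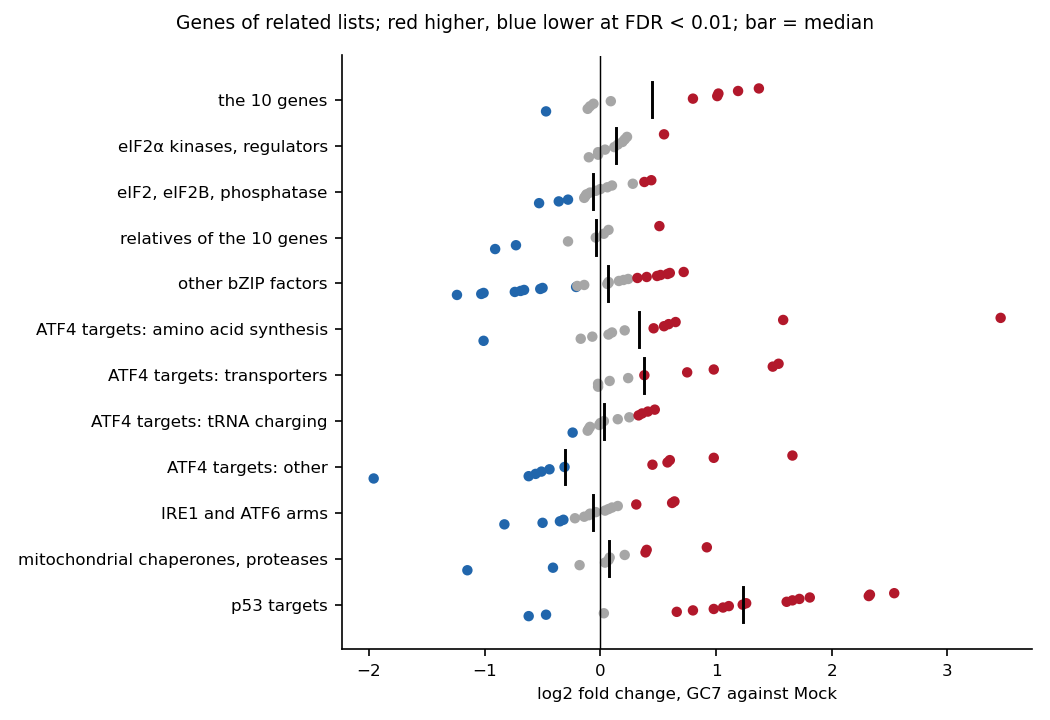
Log2 fold change of GC7 against Mock (horizontal axis) for each tested gene (points) of the 10 genes and of 11 related lists, with the median of each list as a vertical bar. Red genes were higher, blue genes lower and grey genes not called at FDR under 0.01, and genes shared by several lists appear in each. The median is 0.45 for the 10 genes, 0.14 for the eIF2 kinase list and 1.23 for p53 targets. Without *Chac1*, which was tested only because it was higher in GC7, the median of the 10 genes becomes 0.09. Leaving out any other single gene that rose gives the same median.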

How the data were processed

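Each library has a table of raw read counts that the authors deposited without normalisation or pooling. Paired-end reads had been trimmed with Cutadapt and aligned to GRCm38 with STAR, and featureCounts had assigned them to Ensembl genes. The strand setting and the handling of multiply matching reads are not given in the sources used here, so shared exon bases are named beside the genes they touch. Groups and replicate numbers came from the sample titles. The paper's text calls the 4 libraries a group biological replicates.

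Genes over 3 CPM in at least 4 libraries were kept, at least 52.6 counts in the smallest library and 75.9 in the largest. Changes were estimated with edgeR (version 4.0.16, R version 4.3.3) from TMM-scaled counts in a model of the group alone. Its quasi-likelihood test was used, with p-values adjusted by Benjamini-Hochberg over 11189 genes. CPM values are relative to the summed counts of the genes tested and the TMM factor, whereas the filter used library totals. The common biological coefficient of variation was 0.0918. Centred log2 CPM used a prior count of 2. Gene models were those of GENCODE M21, promoters those of RefSeq, and copies were searched with BLAST (version 2.17.0) at 200 bases and 90% identity, which found only the overlap of *Cebpb* and *Tmem189*. Counts carry no molecular identifiers.

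Alternatives were RLE factors, library totals, TMM without mitochondrial genes, no filter, filterByExpr, DESeq2 (version 1.42.0), limma-voom (version 3.58.1), a replicate block and each library left out in turn. Leaving out Mock 2 and GC7 3 together was chosen after seeing the data. Outlying libraries were sought with Dixon's ratio.

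The 10 genes and the gene lists were chosen with earlier results of these data known. Named are the 10 genes, all tested genes of the eIF2 kinase list, the 2 highest and 2 lowest called genes of every other list, relatives of the 10, and the 3 protein-coding genes nearest in pattern to *Atf4* and to the gene with the largest change. *Ppp1cc*, *Tmem189*, *Mars*, *Nup62* and the marker genes were named outside that rule. Polyproline runs were counted in translated coding sequences but are not reported, because no protein table was used to check them. Nascent protein measurements were not analysed here.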

Additional observations from a re-analysis of the deposited data

Results flagged for a closer look

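Dixon's ratio, the gap between an extreme value and its neighbour over the whole range, passed its 95% limit in 15 of the 132 sets of 4 values looked at, where chance alone gives about 6.6. Mock 2 was the extreme library in 7 of these sets and GC7 3 in 5. Among the 10 genes this concerned *Ppp1r15a* alone, with Mock 2 highest (0.861) and GC7 3 lowest (0.838).

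Mock 2 was also the highest mock library for *Sars* (0.921), *Hspe1* (0.867) and *Mgat1* (0.848), and the lowest for *Ern1* (0.845), *Sesn3* (0.835) and the TMM factor (0.854). GC7 3 was the lowest GC7 library for *Nfil3* (0.916), *Mgat1* (0.854) and *Lonp1* (0.838), and the highest for *Plk2* (0.831). Single libraries stood apart for *Nfe2l2* (GC7 2 highest, 0.976), *Sesn1* (Mock 1 lowest, 0.929) and *Chac2* (GC7 4 lowest, 0.863).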

How the results depend on the processing

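The 6 calls among the 10 genes kept their direction and their side of the threshold in all 17 alternatives, and 53 of 64 named genes did so. Among the 6, *Chac1* passed the 3 CPM filter only because it was higher in GC7. In the settings with that filter its direction was therefore set beforehand. With no filter 773 genes rose and 1189 fell by more than 2-fold, and with filterByExpr 601 and 1013, against 355 and 594. Of the 10 genes, 2 to 4 rose by more than 2-fold with single libraries left out. In the eIF2 kinase list 3 genes were higher under library totals, 2 under DESeq2, 1 to 2 with a library left out (2 without Mock 2) and 4, with 1 lower, without both Mock 2 and GC7 3, where the IRE1 and ATF6 list had 6 higher. Under tRNA charging, no gene (0) was lower under library totals, TMM without mitochondrial genes, no filter, filterByExpr or the replicate block, and 0 to 1 with a library left out.

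Signs that turned belonged to genes that were not called. Under library totals, which moved the median of all genes from 0.02 to 0.11, *Cebpb* was 0.04, *Trib3* 0.00, *Eif2ak2* and *Dele1* 0.07 and *Ppp1r15b* 0.05. Without both Mock 2 and GC7 3, *Cebpb* was 0.23, *Trib3* 0.08 and *Sesn1* -0.04. With 1 library left out, values ran from -0.18 to 0.11 for *Cebpb*, from -0.22 to 0.01 for *Trib3*, from -0.12 to 0.04 for *Eif2ak2*, from -0.07 to 0.01 for *Dele1*, and from -0.09 to 0.01 for *Ppp1r15b*, and *Sesn1* was -0.06 at its lowest. The cause of these shifts was not tested.

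Whether libraries of the same replicate number were paired is not given by the titles. The correlations of same-numbered deviations ran from -0.183 to 0.272, with a mean of 0.044, and the mean for different numbers was -0.02. Values this low can also come from a weak pairing, so they do not decide the question. With the replicate block, the 6 calls remained and 3 of the 10 genes rose by more than 2-fold. *Chac1*, with 40 to 130 counts a library, is the gene whose depth limits it most.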
